A study of Homo sapiens with 42 samples.

Results

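The genes described here build sterols and fatty acids or control that synthesis, and most are textbook targets of the SREBP transcription factors. They were taken as a list of symbols chosen with earlier results of these data known, and all 39 were found among the 50648 genes of the deposited count tables. By role, 8 belong to the mevalonate and isoprenoid steps and 11 to the steps between squalene and cholesterol; these 19 make up the sterol branch. A further 5 sense sterols, 3 take up or move sterols, 3 are targets of the liver X receptor (LXR), and 9 make fatty acids or related lipids. The levels were measured by RNA sequencing in 7 established human acute lymphoblastic leukaemia lines: Nalm6, SUPB15, RS411, REH, 697, CEM and DND41. In each line 3 libraries came from cultures given 1 IU/ml of L-asparaginase over 4 h and 3 from untreated cultures, making 42 libraries in 14 groups. Every culture, treated or not, grew in RPMI-1640 with fetal bovine serum and glutamine, and the submitters state that each line was studied in 3 independent experiments. L-asparaginase is a leukaemia drug, an enzyme that hydrolyses asparagine and, to a lesser degree, glutamine. Each line descends from 1 patient's cells, so a difference between lines is not a difference between leukaemia types.

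Sterol and fatty acid synthesis is set largely by the SREBP proteins, which are made from SREBF1 and SREBF2 and sit in the endoplasmic reticulum bound to SCAP. When membrane sterol is low, SCAP carries them to the Golgi, where proteases free the part that enters the nucleus; when sterol is high, INSIG proteins hold SCAP back. The SREBF2 product acts mainly on cholesterol genes and the SREBF1 product mainly on fatty acid genes, while oxidised sterols activate LXR, which turns on the sterol exporters ABCA1 and ABCG1. Dividing leukaemia cells draw on these pathways for membrane.

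Depth, as total counts per library, ran between 15.07 and 77.14 M, with a median of 40.28 M. Levels are given as CPM, the count of a gene scaled to library size, which shows a gene's share of the library, so that fewer cells of a kind and less RNA per cell cannot be told apart. Taken by medians, the markers followed lineage: the median of 7 B-lineage markers was 134 to 263 CPM in the 5 B-precursor lines, against 0.295 CPM in CEM and 0.531 CPM in DND41, where the median of 7 T-lineage markers was 211 and 243 CPM. The T-lineage line DND41 nevertheless held the B-lineage marker CD79A at 655, 890.0 and 915 CPM with L-asparaginase, against 622, 953 and 1029 CPM untreated, a mean level above that of any B-lineage marker in any untreated line. It also held EBF1 at 17.8, 15.7 and 14.8 CPM with L-asparaginase, against 21.3, 26.98 and 26.5 CPM untreated, while PAX5 had no counts in its 6 libraries. Of 4 stress response genes known to rise on asparagine loss, DDIT3 rose in 7 lines, TRIB3 in 6, CHAC1 in 5 and ASNS in 3. In 5 lines (DND41, 697, RS411, SUPB15 and Nalm6) untreated library A, or 1 in 697, stood apart by its share of small structural RNAs. They took 3.35% to 7.23% of its counts, against 7.83% to 13.5% in the other 16 untreated libraries and 5.77% to 17.8% in the 21 treated ones. The gap was small in RS411, where untreated library A held 7.23%, C 7.83% and B 13.5%. In DND41 untreated library A held 5.63%, near the 5.77% of treated library A. Treated SUPB15 library C held 73 genes at 1 CPM or more that had no count in any other SUPB15 library, treated REH library A held 12 such genes and treated RS411 library B held 3. Counts of called genes were therefore repeated without those 5 and without those 3 libraries. They were also repeated with each library left out in turn, apart from the counts of groups that do not overlap and of single lines set against the others.

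The promoters of INSIG1 and HMGCS1 are shown as examples of a regulator and an enzyme that fell in at least 6 lines (IDI1 and SQLE, which also did, are not printed), and that of SREBF2 because it alone, among the members with a promoter to read, held the sterol regulatory element searched for. Each run is the 250 bases before the outermost start in RefSeq (GRCh38.p14), written along the gene's strand, with the motif matches in capitals: chr7:155297628-155297877 on the plus strand, chr5:43313413-43313662 on the minus strand and chr22:41832855-41833104 on the plus strand.
INSIG1: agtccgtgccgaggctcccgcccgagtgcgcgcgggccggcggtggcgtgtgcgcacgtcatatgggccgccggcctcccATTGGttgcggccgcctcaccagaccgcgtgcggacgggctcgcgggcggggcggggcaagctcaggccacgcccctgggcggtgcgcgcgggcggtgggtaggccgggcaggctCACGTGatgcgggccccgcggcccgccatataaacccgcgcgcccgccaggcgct
HMGCS1: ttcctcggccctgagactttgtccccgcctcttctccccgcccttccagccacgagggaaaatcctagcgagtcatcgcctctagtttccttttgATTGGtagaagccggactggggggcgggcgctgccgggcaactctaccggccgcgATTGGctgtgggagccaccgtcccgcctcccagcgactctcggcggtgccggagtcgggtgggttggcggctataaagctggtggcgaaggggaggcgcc
SREBF2: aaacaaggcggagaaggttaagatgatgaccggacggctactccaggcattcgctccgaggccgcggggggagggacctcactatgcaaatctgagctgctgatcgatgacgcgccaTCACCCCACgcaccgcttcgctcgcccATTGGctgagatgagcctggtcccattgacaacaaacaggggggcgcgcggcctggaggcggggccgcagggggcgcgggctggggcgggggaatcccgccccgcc
In INSIG1 the capitals mark a CCAAT box read on the opposite strand and the E-box CACGTG; in HMGCS1, a pair of CCAAT boxes on the opposite strand; in SREBF2, the element and a CCAAT box on the opposite strand. Windows of 250 bases before to 50 after each start were read on both strands for 34 of the 39 genes. The element TCACNCCAC stood in 1 of them, 2.94%, against 1.39% of 27305 genes with a window. CACGTG was found in 5 (14.7%, against 8.77% of all genes) and CCAAT in 23 (67.6%, against 39.7%). Neither the direct repeat bound by LXR (0.0256% of all genes) nor the composite TGATGNAA, read by ATF4 with C/EBP proteins (4.46% of all genes), was present in these windows. A match is a run of letters and not a measured binding site.

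After 4 h of L-asparaginase, the transcripts of this pathway that changed were mostly lower. Averaged over the 7 lines with equal weight, 23 of the 39 genes were lower and 3 were higher in edgeR's quasi-likelihood test at a Benjamini-Hochberg adjusted p under 0.05. Of all 20983 genes tested, 19.6% were lower and 17.8% higher. The median log2 fold change, treated over untreated, was -0.33 for the 39 genes and -0.02 for all genes tested. INSIG1, which restrains SREBP, had the lowest value of all members (-2.06 ± 0.11 (SE), adjusted p = 6.5e-17), and VLDLR, a lipoprotein receptor, the highest called one (1.07 ± 0.099 (SE), adjusted p = 5.6e-11). The 3 genes that rose were VLDLR, GGPS1 and LPIN1, and LPIN1 was no longer called without a filter on low counts (adjusted p = 0.083) or without the 3 treated libraries with other transcripts (adjusted p = 0.051). Without the 5 untreated libraries that stood apart, CYP51A1, SREBF1, MVD and MVK were called lower too, with adjusted p of 5.9e-07, 1.6e-05, 0.03 and 0.0033, while ACACA was no longer called (adjusted p = 0.14, and 0.058 without a filter on low counts).

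Calls within single lines differed widely in number. Each share given with a count is of all genes tested, called in the same direction, line and setting. In CEM, 25 of 39 tested genes fell and 2 rose, against 17.7% and 19% of all genes tested in that line. In REH 17 of 38 fell and 4 rose, against 13.3% and 13.2%, and 10 fell without treated library C (7.45%). With the replicate letter as a block 25 fell (21.2%), though the labels do not say that a letter marks a shared experiment. Same-lettered treated and untreated REH libraries correlated at 0.40 to 0.52, against at most -0.028 for differently lettered ones. The count of 17 leaves this pairing out. In DND41 16 of 37 fell and 1 rose, against 11.8% and 15.1%. The number that rose was 3 without treated library A (13.9%), 2 without untreated library A (18.7%) and 4 with the replicate letter as a block (21.8%). In Nalm6 14 of 39 fell and 1 rose, against 11.8% and 8.96%. Without treated library A 9 fell (7.46%), and without treated library C 8 fell (6.38%). The number that rose was 0 without treated library A (5.36%), B (4.53%) or C (4.90%) or untreated library B (6.04%). It was 2 without untreated library A (10.7%) or C (7.39%). In SUPB15 12 of 39 fell and 2 rose, against 13.2% and 12.9%. The number that fell was 7 without treated library B (5.31%), treated library C (6.73%) or untreated library B (9.14%). Without untreated library A 4 rose (21.5%). In RS411 9 of 38 fell and 2 rose, against 5.19% and 7.58%. There 14 fell in DESeq2 (8.51%), 4 without treated library C (0.589%) and 18 without untreated library A (11.03%). Of the higher calls there, 0 were left without treated library B (1.65%) or C (0.982%), and 1 without untreated library B (3.83%) or C (4.32%). In 697 7 of 39 fell, against 0.849%, and 0 rose, against 1.55%, where 3 were higher at an unadjusted p under 0.05. DESeq2 called 14 lower (5.65%) and 3 higher (5.21%) there, and the replicate block left 0 lower (0.0196%). The 697 count is the least settled: 22 fell (11.8%) and 4 rose (11.4%) without untreated library 1. The number that fell was 1 without untreated library 2 (0.0187%) and 2 without untreated library 3 (0.0708%). It was 0 without any 1 of the 3 treated libraries (0% to 0.00624%). The errors were also widest in 697: the median SE of the log2 fold change over its tested members was 0.262, against 0.127 in CEM to 0.185 in Nalm6 for the other lines. Treated and untreated libraries did not overlap for 26 of the tested genes in CEM (47.7% of all genes tested), 24 in REH (39.9%), 23 in RS411 (36.5%), 21 in DND41 (42.8%), 19 in SUPB15 (44.1%), 19 in 697 (32.8%) and 17 in Nalm6 (39.1%); in 697 the number was 29 (51.5%) without untreated library 1.

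**Figure D1:**
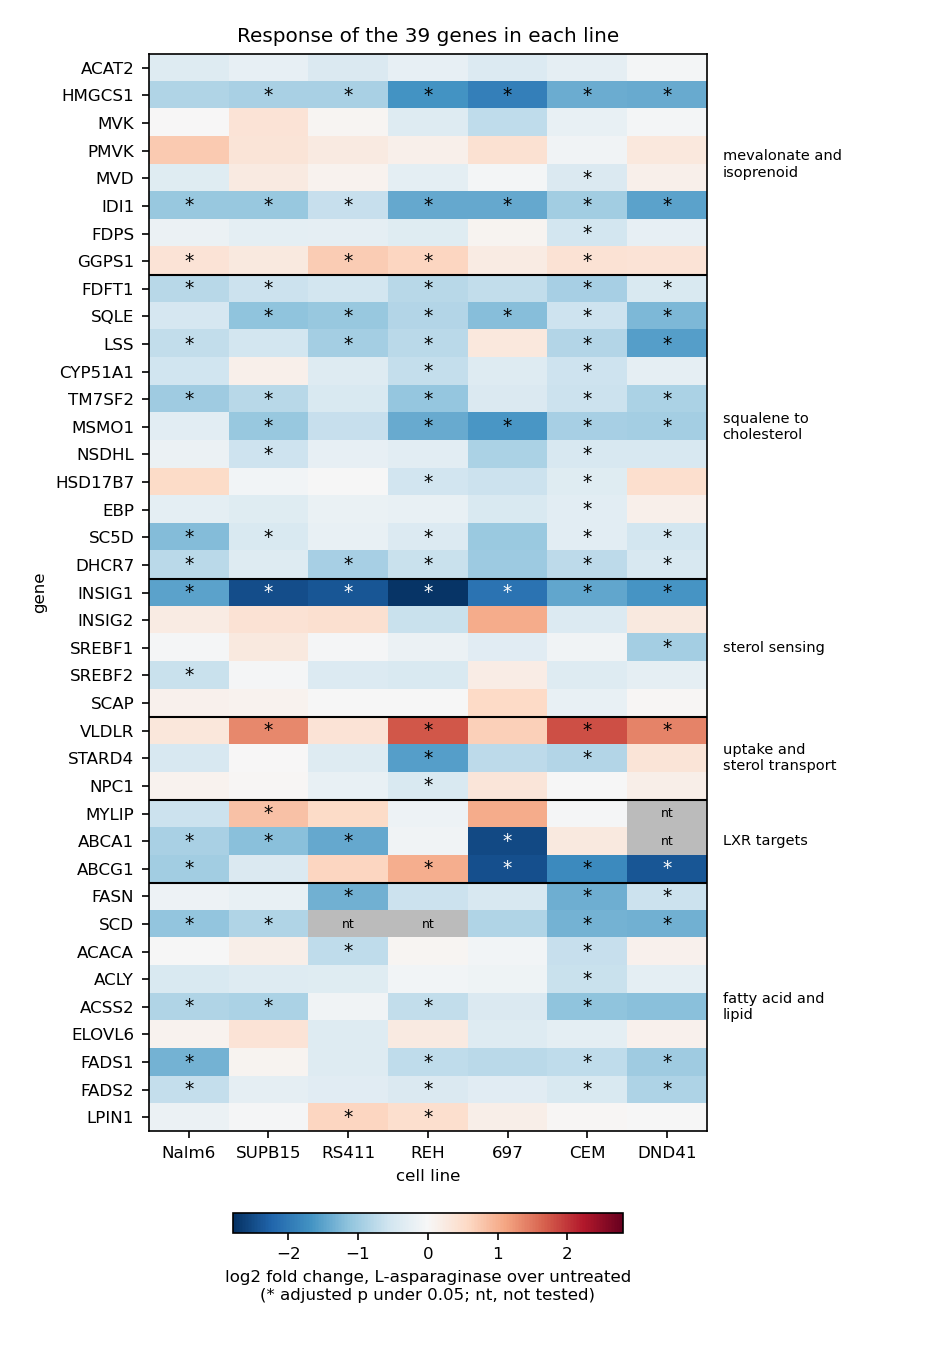
Log2 fold change of the 39 genes (rows, ordered by role) in the 7 lines (columns), L-asparaginase over untreated, 3 libraries a group; stars mark an adjusted p under 0.05 and grey cells genes not tested. INSIG1 and IDI1 carry a star in all 7 lines and lie below 0 throughout, while the stars of VLDLR and GGPS1 lie above 0.

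The heat map sets the calls out gene by gene: cells below 0 dominate the rows of the sterol branch. Of the 36 members tested in all 7 lines, 14 were lower in at least 4 lines, against 5.72% of the 11722 genes tested in all lines, and 10 were lower in at least 5, against 2.46%. In at least 6 lines 4 were lower (0.785%), and in all 7 lines 2 were, INSIG1 and IDI1 (0.0768%). Without the 5 untreated libraries that stood apart, 14 were lower in at least 5 lines (5.42% of all genes), 12 in at least 6 (2.46%) and 5 in all 7 (0.868%). Without the 3 treated libraries that stood apart, 6 were lower in at least 5 lines (1.18%) and 1 in all 7 (0.0338%). No member was lower in all 7 lines without any 1 treated 697 library or with the replicate block, and 4 were without a filter on low counts. Shares of all genes are not given for these settings. In at least 4 lines 2 were higher, VLDLR and GGPS1, against 7.68%, and 1, VLDLR, without the 3 treated libraries or without a filter. No line called PMVK, MVK, ACAT2, INSIG2, SCAP or ELOVL6. The block added lower calls of ACAT2 and MVK in REH and of ACAT2, SCAP and ELOVL6 in CEM. It also added a higher call of PMVK in Nalm6.

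**Figure D2:**
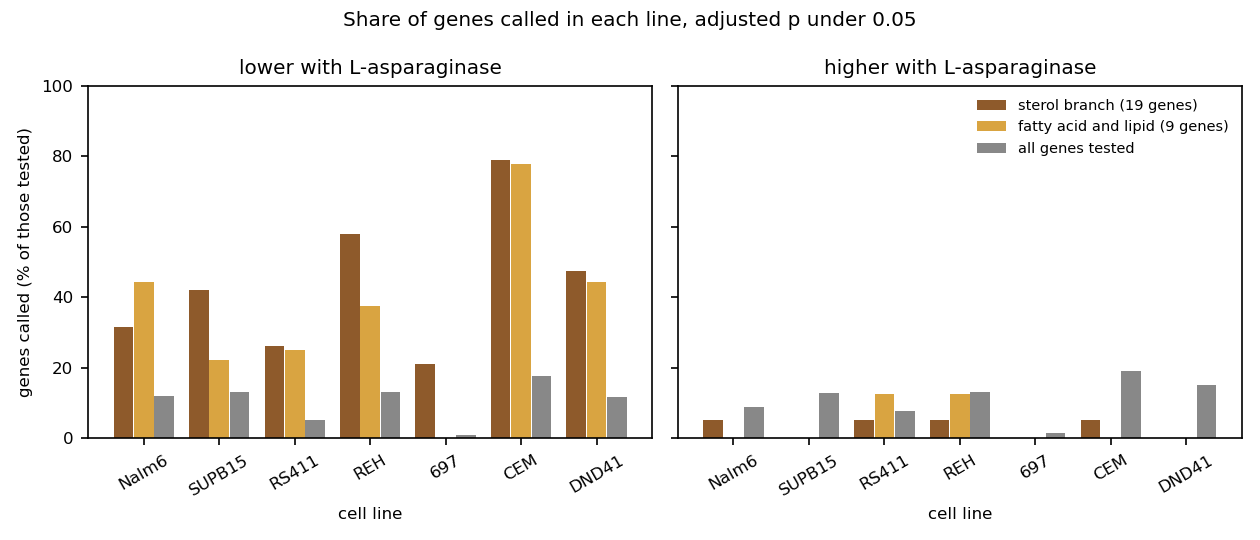
Percentage of genes called lower (left) and higher (right) in each line, out of those tested, for the 19 genes of the sterol branch, the 9 fatty acid and lipid genes and all genes tested; call at an adjusted p under 0.05. In CEM 15 of 19 sterol branch genes and 7 of 9 fatty acid genes were lower (17.7% of all genes tested), and in 697 4 and 0 (0.849%).

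The bars of called genes show the share of lower calls in the sterol branch beside that of all genes in each line. Shares in brackets are of all genes tested, called in the same direction, line and setting. Its lower calls numbered 15 of 19 genes in CEM (17.7%), 11 in REH (13.3%), 9 in DND41 (11.8%) and 8 in SUPB15 (13.2%). In Nalm6 they numbered 6 (11.8%), in RS411 5 (5.19%) and in 697 4 (0.849%). The 697 count was 0 without treated library 1 (0.00624%), 2 (0%) or 3 (0%), without untreated library 2 (0.0187%) and with the replicate block (0.0196%). It was 1 without untreated library 3 (0.0708%), 14 without untreated library 1 (11.8%) and 8 in DESeq2 (5.65%). In RS411 it was 3 without treated library B (0.978%), 2 without treated library C (0.589%) and 10 without untreated library A (11.03%). In SUPB15 it was 4 without any 1 library but untreated A (5.31% to 9.14%). In Nalm6 it was 2 without treated library A (7.46%) or C (6.38%), 3 without untreated library C (8.98%) and 10 without a filter on low counts (8.13%). Without treated library C it was 6 in REH (7.45%), 9 in CEM (13.0%) and 5 in DND41 (4.67%), and with the block it was 17 in REH (21.2%). Its higher calls, 1 each in Nalm6 (8.96%), RS411 (7.58%), REH (13.2%) and CEM (19%), were all of GGPS1. Of the fatty acid and lipid genes, 7 of 9 fell in CEM (17.7%), 4 in Nalm6 (11.8%) and 4 in DND41 (11.8%). In REH 3 of 8 fell (13.3%), in SUPB15 2 of 9 (13.2%) and in RS411 2 of 8 (5.19%). In 697 0 of 9 fell by edgeR (0.849%), 2 in DESeq2 (5.65%) and 3 without untreated library 1 (11.8%). Without untreated library A 4 fell in SUPB15 (18.97%) and 5 in RS411 (11.03%), where DESeq2 also called 5 (8.51%) and 1 fell without treated library C (0.589%). Median log2 fold changes ran between -0.60 in 697 and -0.37 in SUPB15 for the sterol branch and between -0.64 in CEM and -0.22 in SUPB15 for the fatty acid genes, against -0.03 to -0.003 for all genes.

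Summed over its 19 genes, the sterol branch stood at 898 ± 53 CPM with L-asparaginase and 1518 ± 157 CPM untreated in REH, and at 1211 ± 26 CPM with L-asparaginase and 2137 ± 262 CPM untreated in 697 (SD, n = 3 each). The treated mean was 0.567 times the untreated mean in 697 and 0.707 times in RS411, the other lines lay between, and treated and untreated libraries overlapped in no line. The fatty acid and lipid sum was 0.567 times the untreated mean in CEM and 0.842 times in SUPB15, where the groups overlapped. The LXR target sum went both ways: 0.185 times the untreated mean in DND41, 0.352 in CEM, 0.521 in Nalm6 and 0.571 in 697, but 1.498 in SUPB15 and 1.20 in RS411, each without overlap, and 0.988 in REH with overlap. In SUPB15 and RS411 the sum was higher through MYLIP, at 52.7 ± 0.751 CPM with L-asparaginase and 29.4 ± 2.56 CPM untreated (SD, n = 3 each) in SUPB15 and 16.1 ± 3.82 CPM with L-asparaginase and 11.2 ± 0.0542 CPM untreated (SD, n = 3 each) in RS411, while ABCA1 was lower in both lines. The DND41 sum was nearly all ABCG1, at 6.55 ± 2.25 CPM with L-asparaginase and 35.4 ± 14.7 CPM untreated (SD, n = 3 each). A sum weighs genes with many counts most, and no test was run on these sums.

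**Figure D3:**
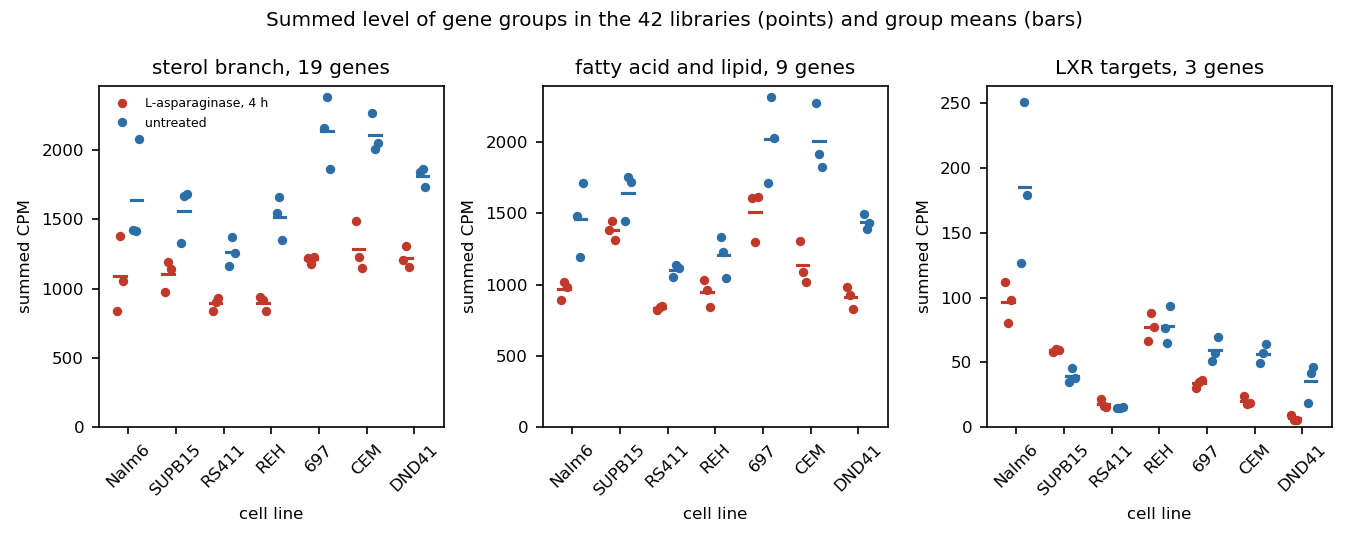
Summed CPM of the sterol branch (left), the fatty acid and lipid genes (centre) and the LXR targets (right) in each library (points) and group mean (bars), treated left of untreated in each line. Sterol branch sums lie lower with L-asparaginase in every line, while the LXR sums are lower in 4 lines and higher in SUPB15 and RS411.

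INSIG1, whose protein holds the SCAP and SREBP complex in the endoplasmic reticulum and whose gene is itself an SREBP target, fell in all 7 lines. REH cells held 71.4, 66.4 and 53.2 CPM of INSIG1 with L-asparaginase, against 452, 469 and 403 CPM untreated. For INSIG1 in SUPB15, the treated libraries gave 30.3, 40.2 and 40.3 CPM and the untreated libraries 138, 225 and 253 CPM. In RS411, INSIG1 was at 50.1, 46.9 and 45.6 CPM with L-asparaginase, against 209, 269 and 278 CPM untreated. In these lines the treated libraries lay close together and far below every untreated one. 697 cells held 56.5, 51.9 and 58.4 CPM of INSIG1 with L-asparaginase, against 207, 299.9 and 192 CPM untreated. For INSIG1 in DND41, the treated libraries gave 39.7, 113 and 71.5 CPM and the untreated libraries 189, 303 and 229.7 CPM. In CEM, INSIG1 was at 172, 191 and 176 CPM with L-asparaginase, against 495, 456 and 548 CPM untreated. CEM kept the highest treated level of these lines, and treated DND41 library A was well below its companions. Nalm6 cells held 51.8, 139 and 71.5 CPM of INSIG1 with L-asparaginase, against 201, 244 and 319.7 CPM untreated. Groups overlapped in no line. The log2 fold change was lowest in REH (-2.76 ± 0.14 (SE), adjusted p = 4.4e-06) and highest in CEM (-1.47 ± 0.097 (SE), adjusted p = 1.7e-06). The call in 697 (adjusted p = 0.011) was lost without treated library 1, 2 or 3 (adjusted p of 0.078, 0.13 and 0.11); the other 6 calls held with each library left out in turn.

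Of the rest of the sensing machinery, SREBF1 and SREBF2 were each called in 1 line. SREBF2 was lower in Nalm6 (-0.61 ± 0.12 (SE), adjusted p = 0.0062), and with the replicate block also in REH (-0.42, adjusted p = 0.00054) and CEM (-0.33, adjusted p = 0.006). It ranged over -0.61 in Nalm6 to 0.20 in 697; in the mean response it was lower (-0.28 ± 0.072 (SE), adjusted p = 0.0023). SREBF1 was lower in DND41 only (-0.94 ± 0.17 (SE), adjusted p = 0.0041), where it stood at 12.8 ± 1.49 CPM with L-asparaginase and 25.1 ± 5.11 CPM untreated (SD, n = 3 each), and ranged over -0.94 in DND41 to 0.27 in SUPB15. SCAP, the escort, ranged over -0.21 in CEM to 0.56 in 697 with no call in any line, and with the block it was lower in CEM (-0.21, adjusted p = 0.041). INSIG2, the second of the retention proteins, was also called in no line, but its response differed between lines (interaction adjusted p = 0.044). For INSIG2 in 697, the treated libraries gave 9.27, 11.2 and 10.2 CPM and the untreated libraries 5.08, 3.52 and 6.201 CPM. In SUPB15, INSIG2 was at 17.5, 14.9 and 15.7 CPM with L-asparaginase, against 10.8, 9.89 and 14.8 CPM untreated. RS411 cells held 12.3, 13.5 and 12.98 CPM of INSIG2 with L-asparaginase, against 7.06, 9.59 and 11.98 CPM untreated. In these lines every treated library lay above every untreated one. For INSIG2 in REH, the treated libraries gave 11.4, 13.5 and 14.6 CPM and the untreated libraries 11.02, 14.3 and 37.5 CPM. In CEM, INSIG2 was at 16.2, 18.8 and 15.96 CPM with L-asparaginase, against 15.9, 16.6 and 34.4 CPM untreated. In REH and CEM untreated library C was far above all the others. Nalm6 cells held 10.4, 11.7 and 11.9 CPM of INSIG2 with L-asparaginase, against 7.78, 9.91 and 11.9 CPM untreated. For INSIG2 in DND41, the treated libraries gave 14.5, 16.8 and 15.00 CPM and the untreated libraries 10.1, 11.6 and 17.5 CPM. There the groups overlapped. INSIG2's mean response was 0.18 ± 0.11 (SE), adjusted p = 0.23, but 0.29 (adjusted p = 0.012) without untreated REH library C.

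**Figure D4:**
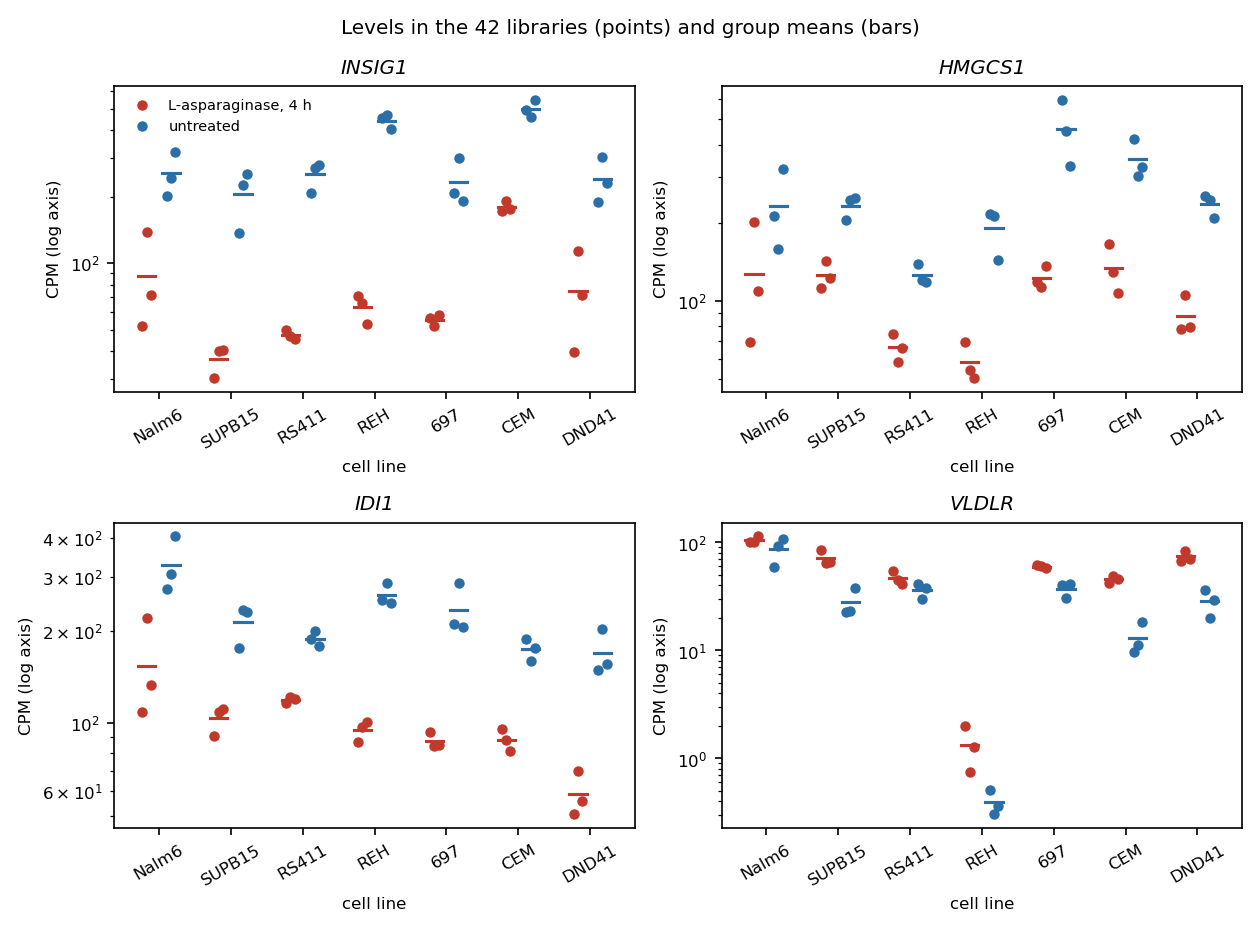
CPM (log axis) of INSIG1, HMGCS1, IDI1 and VLDLR in each of the 42 libraries (points) and group means (bars), with L-asparaginase left of untreated in each line. INSIG1 and IDI1 lie lower in all treated libraries of all lines, HMGCS1 in 6 lines, and VLDLR lies higher in treated libraries of 5 lines without overlap.

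The plot of levels by library shows INSIG1 beside a pair of mevalonate enzymes and VLDLR. HMGCS1 joins acetyl-CoA and acetoacetyl-CoA at the entry to the mevalonate pathway, and it fell in every line but Nalm6. In 697, HMGCS1 was at 119, 114 and 137 CPM with L-asparaginase, against 595, 453 and 332 CPM untreated. REH cells held 69.6, 54.1 and 50.7 CPM of HMGCS1 with L-asparaginase, against 217, 212 and 144 CPM untreated. For HMGCS1 in DND41, the treated libraries gave 78.3, 106 and 79.4 CPM and the untreated libraries 254, 245 and 209 CPM. All treated libraries were far below all untreated ones here. In CEM, HMGCS1 was at 165, 129 and 107 CPM with L-asparaginase, against 422, 304 and 329 CPM untreated. RS411 cells held 74.8, 58.5 and 65.7 CPM of HMGCS1 with L-asparaginase, against 139.5, 120.3 and 118 CPM untreated. For HMGCS1 in SUPB15, the treated libraries gave 113, 142 and 122 CPM and the untreated libraries 205, 245 and 249.3 CPM. The groups were again separate. In Nalm6, HMGCS1 was at 69.4, 201 and 109 CPM with L-asparaginase, against 212, 159 and 324 CPM untreated. Treated Nalm6 library B lay among the untreated ones, and the line was not called (-0.84 ± 0.34 (SE), adjusted p = 0.11). The change was largest in 697 (-1.92 ± 0.26 (SE), adjusted p = 0.021), a call lost without treated library 1, 2 or 3 or untreated library 2 (adjusted p between 0.075 and 0.17); that in RS411 was lost without treated library C (adjusted p = 0.057). An annotated antisense gene covers 19.9% of the exon bases of HMGCS1, and whether counting used strand is not given in the sources used here.

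IDI1 isomerises the basic isoprenoid unit. DND41 cells held 50.5, 69.9 and 55.9 CPM of IDI1 with L-asparaginase, against 149, 203 and 156 CPM untreated. For IDI1 in 697, the treated libraries gave 93.3, 84.4 and 84.7 CPM and the untreated libraries 210.2, 286 and 206 CPM. In REH, IDI1 was at 86.8, 96.9 and 101 CPM with L-asparaginase, against 252, 287 and 246 CPM untreated. In each of these lines the highest treated library was well below the lowest untreated one. Nalm6 cells held 108, 219 and 133 CPM of IDI1 with L-asparaginase, against 274, 305 and 406 CPM untreated. For IDI1 in SUPB15, the treated libraries gave 91.1, 108 and 112 CPM and the untreated libraries 176, 233 and 230.0 CPM. In CEM, IDI1 was at 95.8, 88.1 and 81.03 CPM with L-asparaginase, against 187, 159 and 176 CPM untreated. These groups were separate too, although treated Nalm6 library B stood far above its companions. RS411 cells held 117, 122 and 119.5 CPM of IDI1 with L-asparaginase, against 188, 199 and 178 CPM untreated. RS411 showed the smallest change (-0.65 ± 0.099 (SE), adjusted p = 0.0071) and DND41 the largest (-1.50 ± 0.16 (SE), adjusted p = 0.00062). Calls were lost in Nalm6 without treated library A (adjusted p = 0.0501), in RS411 without treated library B or C (0.056 and 0.063) and in 697 without any library but untreated 1 (adjusted p between 0.053 and 0.17).

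GGPS1, which makes the geranylgeranyl chain used to anchor small GTPases, went the other way and rose in 4 lines. For GGPS1 in RS411, the treated libraries gave 45.9, 48.6 and 53.3 CPM and the untreated libraries 30.2, 31.6 and 29.6 CPM. In REH, GGPS1 was at 38.8, 45.4 and 48.6 CPM with L-asparaginase, against 28.7, 30.4 and 31.2 CPM untreated. CEM cells held 47.2, 43.6 and 46.01 CPM of GGPS1 with L-asparaginase, against 31.1, 33.6 and 39.7 CPM untreated. Every treated library was above every untreated one in these lines. For GGPS1 in Nalm6, the treated libraries gave 29.5, 32.6 and 33.5 CPM and the untreated libraries 22.9, 25.5 and 26.7 CPM. In SUPB15, GGPS1 was at 57.6, 67.2 and 74.9 CPM with L-asparaginase, against 57.2, 53.8 and 52.1 CPM untreated. DND41 cells held 46.8, 50.3 and 50.7 CPM of GGPS1 with L-asparaginase, against 40.7, 30.7 and 44.02 CPM untreated. Separation was narrower here, and narrowest in SUPB15. For GGPS1 in 697, the treated libraries gave 54.7, 64.5 and 51.7 CPM and the untreated libraries 60.4, 40.9 and 41.9 CPM. Only in 697 did the groups overlap. Averaged over the lines, GGPS1 rose by 0.41 ± 0.052 (SE), adjusted p = 3.6e-08. With the block it was also called in DND41 (0.40, adjusted p = 0.026). The Nalm6 call was lost without a filter on low counts (adjusted p = 0.11) and without any 1 library but untreated A (adjusted p between 0.051 and 0.13), and the RS411 call without treated library B or C (0.051 and 0.058). GGPS1 shares 11.3% of its exon bases with TBCE on the same strand.

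The 5 other mevalonate and isoprenoid genes changed less. FDPS, which makes farnesyl diphosphate, and MVD, the decarboxylase before IDI1, fell in CEM (-0.51 ± 0.13 (SE), adjusted p = 0.0082 and -0.40 ± 0.14 (SE), adjusted p = 0.038) and, with the replicate block, in REH (-0.33, adjusted p = 0.0045, and -0.26, adjusted p = 0.037). FDPS ranged over -0.51 in CEM to 0.08 in 697 and was lower in the mean response (-0.25 ± 0.066 (SE), adjusted p = 0.0023). There are 8 annotated pseudogenes that carry its name, so reads shared with them make its level uncertain. An antisense gene also covers 28.9% of the FDPS exon bases. The FDPS call in CEM was lost without treated library C (adjusted p = 0.052), and that of MVD without treated library B or C or untreated library A or B (adjusted p between 0.055 and 0.15). ACAT2, the thiolase ahead of HMGCS1, was called in no line but lay below 0 in all 7, over -0.41 in RS411 to -0.05 in DND41, with a lower mean response (-0.29 ± 0.076 (SE), adjusted p = 0.0025); with the block it was lower in REH (-0.24, adjusted p = 0.018) and CEM (-0.27, adjusted p = 0.014). Exons of genes on the opposite strand, SOD2 and its transcript SOD2-OT1 among them, cover 34.8% and 45.8% of those of ACAT2. The kinases MVK and PMVK had mean responses of -0.14 ± 0.092 (SE), adjusted p = 0.27, and 0.28 ± 0.14 (SE), adjusted p = 0.12. With the replicate block the mean response of PMVK was called higher at 0.35 (adjusted p = 0.012), as was its response in Nalm6 (0.80, adjusted p = 0.014). MVK was lower in REH with the block (-0.36, adjusted p = 0.016).

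FDFT1, squalene synthase, commits farnesyl diphosphate to sterols and fell in 5 lines. In CEM, FDFT1 was at 248, 198 and 192 CPM with L-asparaginase, against 402, 403 and 428 CPM untreated. REH cells held 116, 114 and 97.3 CPM of FDFT1 with L-asparaginase, against 188, 209 and 179.7 CPM untreated. For FDFT1 in SUPB15, the treated libraries gave 140.1, 169 and 158 CPM and the untreated libraries 193, 252 and 259 CPM. Treated libraries lay below untreated ones throughout. In Nalm6, FDFT1 was at 55.2, 98.3 and 73.9 CPM with L-asparaginase, against 117, 124 and 158 CPM untreated. DND41 cells held 345, 339.6 and 299.9 CPM of FDFT1 with L-asparaginase, against 468, 427 and 455 CPM untreated. For FDFT1 in 697, the treated libraries gave 175, 165 and 174 CPM and the untreated libraries 298, 298 and 225 CPM. The groups were separate in these lines as well, but 697 was not called (-0.69 ± 0.18 (SE), adjusted p = 0.1). In RS411, FDFT1 was at 88.9, 157 and 164 CPM with L-asparaginase, against 130.5, 245 and 215 CPM untreated. In RS411, the first library of each group was low and the groups overlapped; with the block RS411 was called lower (-0.52, adjusted p = 0.022). Averaged over the lines, the log2 fold change was -0.69 ± 0.075 (SE), adjusted p = 1.8e-09. The call held in REH and CEM with each library left out; it was lost in Nalm6 without treated library A or C (both adjusted p = 0.057), in SUPB15 without any library but untreated A (adjusted p between 0.0501 and 0.057), and in DND41 without treated library B or C or untreated library B or C (adjusted p between 0.052 and 0.21) or without a filter on low counts (0.054).

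SQLE, squalene epoxidase, adds the first oxygen. DND41 cells held 56.6, 68.6 and 56.8 CPM of SQLE with L-asparaginase, against 162, 149 and 130.1 CPM untreated. For SQLE in 697, the treated libraries gave 119, 128 and 140.0 CPM and the untreated libraries 317, 296 and 260.0 CPM. In SUPB15, SQLE was at 45.4, 58.2 and 49.3 CPM with L-asparaginase, against 113, 102 and 116 CPM untreated. Here all treated libraries lay far below all untreated ones. RS411 cells held 83.4, 75.8 and 75.6 CPM of SQLE with L-asparaginase, against 176, 162 and 155 CPM untreated. For SQLE in REH, the treated libraries gave 64.8, 56.2 and 50.2 CPM and the untreated libraries 111, 111 and 89.1 CPM. In CEM, SQLE was at 88.1, 87.5 and 76.5 CPM with L-asparaginase, against 126, 122 and 135 CPM untreated. The same separation held in these lines. Nalm6 cells held 41.00, 96.3 and 60.4 CPM of SQLE with L-asparaginase, against 88.3, 69.9 and 123 CPM untreated. Nalm6 was the exception: treated library B lay among the untreated ones, and the difference was not called (-0.48 ± 0.27 (SE), adjusted p = 0.24). SQLE had a mean response of -0.94 ± 0.071 (SE), adjusted p = 3e-13. The 697 call (-1.19 ± 0.18 (SE), adjusted p = 0.025) was lost without any library but untreated 1 (adjusted p between 0.056 and 0.21), and the other 5 calls held with each library left out in turn.

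LSS closes squalene epoxide into lanosterol, the first ring structure. For LSS in DND41, the treated libraries gave 16.3, 12.5 and 10.3 CPM and the untreated libraries 41.8, 36.7 and 36.8 CPM. In RS411, LSS was at 21.8, 21.4 and 19.2 CPM with L-asparaginase, against 35.4, 45.2 and 40.6 CPM untreated. REH cells held 39.8, 30.8 and 25.5 CPM of LSS with L-asparaginase, against 64.5, 58.1 and 43.5 CPM untreated. The groups did not overlap, and DND41 had the largest change (-1.53 ± 0.18 (SE), adjusted p = 0.00084). For LSS in Nalm6, the treated libraries gave 40.1, 49.8 and 42.1 CPM and the untreated libraries 58.4, 60.5 and 100.1 CPM. In CEM, LSS was at 56.6, 33.8 and 28.96 CPM with L-asparaginase, against 93.7, 65.99 and 52.8 CPM untreated. SUPB15 cells held 36.7, 38.7 and 29.1 CPM of LSS with L-asparaginase, against 35.4, 55.2 and 57.3 CPM untreated. Nalm6 stayed separate, while in CEM and SUPB15 a treated library reached into the untreated range. For LSS in 697, the treated libraries gave 76.02, 60.8 and 82.97 CPM and the untreated libraries 19.5, 89.1 and 70.4 CPM. Untreated 697 library 1, a library that stood apart, was lowest of the 6, and 697 was not called. The CEM call was lost in DESeq2 (adjusted p = 0.090) and without treated library B or C (0.082 and 0.090), the REH call without treated library C (0.055), and the Nalm6 call without treated library A or C or untreated library C (adjusted p between 0.063 and 0.10). Over the 7 lines the log2 fold change of LSS was -0.73 ± 0.12 (SE), adjusted p = 5e-06. Antisense genes cover 8.34% and 2.27% of the LSS exon bases.

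MSMO1 removes methyl groups from the lanosterol skeleton. In 697, MSMO1 was at 32.4, 40.1 and 40.6 CPM with L-asparaginase, against 72.5, 157 and 121 CPM untreated. REH cells held 19.4, 22.9 and 24.5 CPM of MSMO1 with L-asparaginase, against 66.3, 63.5 and 51.9 CPM untreated. For MSMO1 in SUPB15, the treated libraries gave 13.2, 17.7 and 20.01 CPM and the untreated libraries 24.2, 41.2 and 40.3 CPM. Every treated library lay below every untreated one. In DND41, MSMO1 was at 35.2, 52.3 and 47.3 CPM with L-asparaginase, against 75.1, 113 and 75.9 CPM untreated. CEM cells held 43.7, 44.4 and 41.9 CPM of MSMO1 with L-asparaginase, against 95.6, 73.8 and 80.2 CPM untreated. For MSMO1 in RS411, the treated libraries gave 30.7, 31.3 and 29.1 CPM and the untreated libraries 36.98, 43.8 and 61.9 CPM. RS411 was separate too, yet narrowly missed the threshold (-0.63 ± 0.18 (SE), adjusted p = 0.0503), which it passed with the block (adjusted p = 0.042). In Nalm6, MSMO1 was at 29.8, 77.5 and 45.3 CPM with L-asparaginase, against 47.1, 51.5 and 94.8 CPM untreated. In Nalm6 treated library B lay within the untreated range. The mean response was -1.003 ± 0.11 (SE), adjusted p = 8.8e-10; the 697 call was lost without any library but untreated 1 (adjusted p between 0.091 and 0.21).

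TM7SF2 is a sterol reductase that acts after lanosterol is demethylated, and it fell in 5 lines at low levels. REH cells held 11.8, 8.22 and 11.3 CPM of TM7SF2 with L-asparaginase, against 21.6, 24.1 and 22.1 CPM untreated. For TM7SF2 in Nalm6, the treated libraries gave 6.03, 3.81 and 5.39 CPM and the untreated libraries 6.84, 10.04 and 13.96 CPM. In DND41, TM7SF2 was at 6.83, 8.46 and 6.36 CPM with L-asparaginase, against 9.61, 18.2 and 13.4 CPM untreated. These groups were separate. SUPB15 cells held 6.696, 6.08 and 4.83 CPM of TM7SF2 with L-asparaginase, against 6.44, 11.98 and 11.4 CPM untreated. For TM7SF2 in CEM, the treated libraries gave 7.83, 4.99 and 5.82 CPM and the untreated libraries 10.5, 10.8 and 7.35 CPM. In RS411, TM7SF2 was at 8.44, 9.61 and 10.1 CPM with L-asparaginase, against 7.58, 14.7 and 15.6 CPM untreated. In each of these lines at least 1 treated library reached the untreated range. 697 cells held 11.04, 11.2 and 14.8 CPM of TM7SF2 with L-asparaginase, against 4.37, 23.7 and 21.2 CPM untreated. Untreated 697 library 1 was again far below its companions. The call in REH (-1.09 ± 0.16 (SE), adjusted p = 0.00083) held with each library left out, and those in Nalm6, SUPB15, CEM and DND41 were each lost without at least 1 library. In Nalm6 the libraries were treated B or C or untreated C (adjusted p between 0.056 and 0.083), in SUPB15 all but untreated A (between 0.084 and 0.16), as well as with RLE size factors (0.051) or the replicate block (0.082), in CEM treated B or C or untreated B (between 0.095 and 0.11), and in DND41 treated C or untreated B (0.084 and 0.071).

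SC5D and DHCR7 act near the end of cholesterol synthesis, as a sterol desaturase and the reductase that follows it. For SC5D in Nalm6, the treated libraries gave 22.5, 35.1 and 30.8 CPM and the untreated libraries 66.04, 69.2 and 74.3 CPM. In 697, SC5D was at 19.4, 22.6 and 23.3 CPM with L-asparaginase, against 58.4, 40.1 and 34.3 CPM untreated. DND41 cells held 24.7, 26.5 and 26.2 CPM of SC5D with L-asparaginase, against 36.04, 40.8 and 35.6 CPM untreated. These were the widest gaps for SC5D. For SC5D in SUPB15, the treated libraries gave 17.1, 19.4 and 18.5 CPM and the untreated libraries 26.1, 22.8 and 23.6 CPM. In REH, SC5D was at 20.8, 25.5 and 24.7 CPM with L-asparaginase, against 32.2, 32.2 and 31.4 CPM untreated. CEM cells held 27.2, 28.3 and 28.8 CPM of SC5D with L-asparaginase, against 32.9, 36.1 and 34.7 CPM untreated. Gaps here were small but still free of overlap. For SC5D in RS411, the treated libraries gave 23.6, 25.4 and 27.3 CPM and the untreated libraries 32.8, 28.2 and 27.99 CPM. All 7 lines had the treated libraries below the untreated ones, and 5 were called. SC5D's response differed between lines (interaction adjusted p = 0.00089), with its lowest value in Nalm6 (-1.21 ± 0.15 (SE), adjusted p = 0.00065) and its highest in RS411 (-0.21 ± 0.13 (SE), adjusted p = 0.31). The Nalm6 call held with each library left out; the others were lost without at least 1 library, namely SUPB15 without any but untreated A (adjusted p between 0.071 and 0.13; 0.11 without a filter on low counts and 0.061 with the replicate block), REH without treated A, B or C or untreated B (between 0.051 and 0.081), CEM without untreated B (0.068), and DND41 without treated B or C (0.053 and 0.073).

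DHCR7 showed less difference between lines (interaction adjusted p = 0.72). In RS411, DHCR7 was at 12.1, 9.08 and 9.37 CPM with L-asparaginase, against 17.03, 22.3 and 19.8 CPM untreated. Nalm6 cells held 32.6, 56.9 and 39.97 CPM of DHCR7 with L-asparaginase, against 64.4, 61.6 and 96.6 CPM untreated. For DHCR7 in CEM, the treated libraries gave 41.2, 29.8 and 28.7 CPM and the untreated libraries 66.3, 52.7 and 49.2 CPM. Treated libraries were lower throughout. In REH, DHCR7 was at 47.1, 44.6 and 36.8 CPM with L-asparaginase, against 77.04, 70.9 and 53.99 CPM untreated. DND41 cells held 28.7, 36.00 and 29.1 CPM of DHCR7 with L-asparaginase, against 42.96, 47.8 and 40.1 CPM untreated. For DHCR7 in SUPB15, the treated libraries gave 40.5, 47.9 and 39.6 CPM and the untreated libraries 36.4, 66.1 and 60.5 CPM. REH and DND41 were separate, and SUPB15 was not. In 697, DHCR7 was at 32.03, 27.7 and 37.1 CPM with L-asparaginase, against 29.5, 94.7 and 72.1 CPM untreated. Untreated 697 library 1 was below some treated ones. Its mean response was -0.71 ± 0.099 (SE), adjusted p = 2.9e-07. The call held with each library left out in CEM only; it was lost in REH without treated C (adjusted p = 0.061), in RS411 without treated B or C (0.067 and 0.079), in Nalm6 without treated A or C or untreated C (between 0.094 and 0.12) and in DND41 without treated A or C or untreated B (between 0.084 and 0.17).

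The other 4 genes after squalene were called in few lines. NSDHL, a sterol dehydrogenase, fell in SUPB15 and CEM (-0.57 ± 0.17 (SE), adjusted p = 0.039 and -0.45 ± 0.096 (SE), adjusted p = 0.0031), and its groups were separate in 6 lines; with the replicate block it also fell in REH (-0.31, adjusted p = 0.037) and DND41 (-0.44, adjusted p = 0.036). The SUPB15 call was lost without a filter on low counts (adjusted p = 0.052) and without any library but untreated A (adjusted p between 0.068 and 0.11). CYP51A1, the lanosterol demethylase, and HSD17B7, a sterol ketoreductase, fell in REH and CEM. CYP51A1 stood at 6.61 ± 0.903 CPM with L-asparaginase and 10.8 ± 1.68 CPM untreated (SD, n = 3 each) in REH. Each of these 4 calls was lost without at least 1 library: CYP51A1 in REH without treated C or untreated B and in CEM without treated B or C or untreated B (adjusted p between 0.058 and 0.097), HSD17B7 in REH without treated B or C or untreated B and in CEM without treated A, B or C or untreated A (between 0.053 and 0.15). HSD17B7 differed between lines (interaction adjusted p = 0.0057), over -0.60 in 697 to 0.53 in Nalm6, and with the block it rose in DND41 (0.45, adjusted p = 0.042). EBP, an isomerase, fell in CEM (-0.29 ± 0.074 (SE), adjusted p = 0.0087) and, with the block, in REH (-0.20, adjusted p = 0.042). Pseudogenes are annotated for CYP51A1 and HSD17B7, 3 and 2 in number.

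VLDLR, which takes up triglyceride-rich lipoproteins, rose in 4 lines while most of the pathway fell. CEM cells held 42.1, 48.9 and 46.2 CPM of VLDLR with L-asparaginase, against 9.76, 11.3 and 18.5 CPM untreated. For VLDLR in DND41, the treated libraries gave 67.8, 84.2 and 70.6 CPM and the untreated libraries 36.2, 20.1 and 29.6 CPM. In SUPB15, VLDLR was at 84.5, 65.02 and 66.5 CPM with L-asparaginase, against 22.95, 23.05 and 38.2 CPM untreated. Every treated library was far above every untreated one. 697 cells held 61.8, 60.4 and 57.5 CPM of VLDLR with L-asparaginase, against 40.4, 30.7 and 41.3 CPM untreated. For VLDLR in RS411, the treated libraries gave 54.8, 44.8 and 41.6 CPM and the untreated libraries 41.6, 29.7 and 38.2 CPM. In Nalm6, VLDLR was at 101, 101 and 114 CPM with L-asparaginase, against 58.98, 93.3 and 108 CPM untreated. The 697 groups were separate without a call (0.66 ± 0.19 (SE), adjusted p = 0.11), and those of RS411 and Nalm6 overlapped. REH cells held 1.98, 0.754 and 1.28 CPM of VLDLR with L-asparaginase, against 0.512, 0.304 and 0.362 CPM untreated. REH was separate too, far below the levels of the other lines, and its treated library A, which held transcripts absent from the other REH libraries, was highest. The REH log2 fold change was 1.75 ± 0.44 (SE), adjusted p = 0.014; without treated library A it was 1.40 (adjusted p = 0.037), and without untreated library B it was not called (adjusted p = 0.057). CEM had the largest change (1.80 ± 0.18 (SE), adjusted p = 2.5e-05) and Nalm6 the smallest (0.32 ± 0.17 (SE), adjusted p = 0.22), and the response differed between lines (interaction adjusted p = 0.0027). Nalm6 also had the highest untreated level, 86.8 CPM, above the next line, 697, at 37.5 CPM (adjusted p = 6.8e-05); SUPB15 exceeded CEM (adjusted p = 0.00027), CEM exceeded REH (adjusted p = 2.3e-15), and the other neighbours in that order were not called. An antisense gene covers 8.05% of the VLDLR exon bases.

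STARD4 carries cholesterol between membranes, and it fell in REH and CEM. For STARD4 in REH, the treated libraries gave 12.3, 13.7 and 9.28 CPM and the untreated libraries 34.9, 36.2 and 34.8 CPM. In CEM, STARD4 was at 50.9, 53.1 and 50.5 CPM with L-asparaginase, against 101, 84.98 and 88.2 CPM untreated. 697 cells held 44.2, 56.3 and 50.5 CPM of STARD4 with L-asparaginase, against 73.4, 91.2 and 84.8 CPM untreated. The groups were separate, with 697 not called (-0.73 ± 0.17 (SE), adjusted p = 0.075). For STARD4 in RS411, the treated libraries gave 22.6, 16.5 and 17.05 CPM and the untreated libraries 26.02, 23.2 and 23.2 CPM. In Nalm6, STARD4 was at 35.98, 75.3 and 47.2 CPM with L-asparaginase, against 57.6, 64.9 and 98.9 CPM untreated. SUPB15 cells held 59.7, 81.8 and 74.8 CPM of STARD4 with L-asparaginase, against 49.3, 77.1 and 85.2 CPM untreated. RS411 was separate and the others overlapped. For STARD4 in DND41, the treated libraries gave 102, 222 and 185 CPM and the untreated libraries 98.6, 156 and 148 CPM. DND41 was the line with the highest values and overlapped; with the block it was called higher (0.32, adjusted p = 0.049). The interaction adjusted p was 0.0018: the response in REH was below the mean of the other lines by 1.25 (SE 0.27, adjusted p = 0.0063) and that in DND41 above it by 0.998 (SE 0.26, adjusted p = 0.015). NPC1, which lets cholesterol leave lysosomes, fell in REH only (-0.43 ± 0.14 (SE), adjusted p = 0.04), a call lost without treated library B or C or untreated library A or B (adjusted p between 0.087 and 0.15). Untreated SUPB15 cells held 126 CPM of NPC1, above the next line, 697, at 45.7 CPM (adjusted p = 8.1e-10).

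ABCG1 had the widest range of response between lines of all members, 3.47 on the log2 scale, followed by ABCA1 and then STARD4 at 1.92, while MYLIP, the third LXR target, spanned 1.63. ABCA1, which loads cholesterol onto apolipoproteins at the cell surface, fell in 4 B-precursor lines. In 697, ABCA1 was at 9.84, 6.304 and 6.37 CPM with L-asparaginase, against 39.05, 37.4 and 52.8 CPM untreated. Nalm6 cells held 51.3, 29.7 and 37.6 CPM of ABCA1 with L-asparaginase, against 56.97, 109 and 61.8 CPM untreated. For ABCA1 in RS411, the treated libraries gave 1.02, 1.47 and 1.202 CPM and the untreated libraries 3.44, 2.82 and 3.78 CPM. Treated libraries were all below untreated ones. In SUPB15, ABCA1 was at 2.702, 1.43 and 1.395 CPM with L-asparaginase, against 4.31, 4.22 and 3.53 CPM untreated. REH cells held 38.9, 43.9 and 37.2 CPM of ABCA1 with L-asparaginase, against 47.6, 32.6 and 52.6 CPM untreated. For ABCA1 in CEM, the treated libraries gave 1.96, 2.14 and 2.17 CPM and the untreated libraries 1.61, 1.65 and 1.99 CPM. SUPB15 was separate, and REH and CEM overlapped. In DND41 the treated libraries held 2 counts in all and the untreated ones 0, which allows a level of up to 0.0219 CPM, and the gene was not tested there. The log2 fold change was -2.53 ± 0.26 (SE), adjusted p = 0.011 in 697, -1.43 ± 0.24 (SE), adjusted p = 0.0099 in RS411, -1.17 ± 0.29 (SE), adjusted p = 0.019 in SUPB15 and -0.90 ± 0.25 (SE), adjusted p = 0.029 in Nalm6. None of these 4 calls held with each library left out: 697 was lost without any but untreated 1 (adjusted p between 0.0503 and 0.12), Nalm6 without treated B or C or untreated B (between 0.089 and 0.11), SUPB15 likewise without treated B or C or untreated B (between 0.053 and 0.095), and RS411 without treated C (0.067).

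ABCG1, which exports cholesterol to lipoprotein particles, fell in 4 lines and rose in REH. In DND41, ABCG1 was at 9.13, 5.05 and 5.47 CPM with L-asparaginase, against 18.6, 41.7 and 46.03 CPM untreated. CEM cells held 18.8, 12.7 and 13.5 CPM of ABCG1 with L-asparaginase, against 44.6, 52.8 and 58.3 CPM untreated. For ABCG1 in 697, the treated libraries gave 0.939, 0.525 and 0.617 CPM and the untreated libraries 3.28, 5.64 and 2.44 CPM. Treated libraries were well below untreated ones in all 3 lines. In Nalm6, ABCG1 was at 48.8, 40.1 and 47.9 CPM with L-asparaginase, against 58.9, 122 and 94.2 CPM untreated. REH cells held 8.57, 17.8 and 13.7 CPM of ABCG1 with L-asparaginase, against 4.299, 7.31 and 8.97 CPM untreated. For ABCG1 in SUPB15, the treated libraries gave 2.78, 4.98 and 6.03 CPM and the untreated libraries 3.23, 9.29 and 5.63 CPM. Nalm6 was separate and lower, the REH groups overlapped with the treated mean higher, and SUPB15 overlapped. In RS411, ABCG1 was at 0.368, 0.562 and 0.437 CPM with L-asparaginase, against 0.246, 0.341 and 0.314 CPM untreated. RS411 had the lowest mean levels of all lines, with the treated libraries above the untreated ones. The log2 fold change was -2.39 ± 0.34 (SE), adjusted p = 0.0015 in DND41, -1.78 ± 0.15 (SE), adjusted p = 7.4e-06 in CEM and 1.01 ± 0.27 (SE), adjusted p = 0.019 in REH. The REH response was above the mean of the other 6 lines by 2.22 (SE 0.39, adjusted p = 0.0011), while those of 697 and DND41 were below it by 1.76 each (adjusted p of 0.01 and 0.0038). The REH call was lost without treated library B or C (adjusted p of 0.098 and 0.051) and the 697 call without any library but untreated 1 (adjusted p between 0.058 and 0.23). MYLIP, a ubiquitin ligase that marks lipoprotein receptors for breakdown, rose in SUPB15 only, with 52.7 ± 0.751 CPM with L-asparaginase and 29.4 ± 2.56 CPM untreated (SD, n = 3 each), and its log2 fold change was 0.82 ± 0.12 (SE), adjusted p = 0.002. It ranged over -0.60 in Nalm6 to 1.03 in 697 and had 0 counts in all 6 DND41 libraries.

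**Figure D5:**
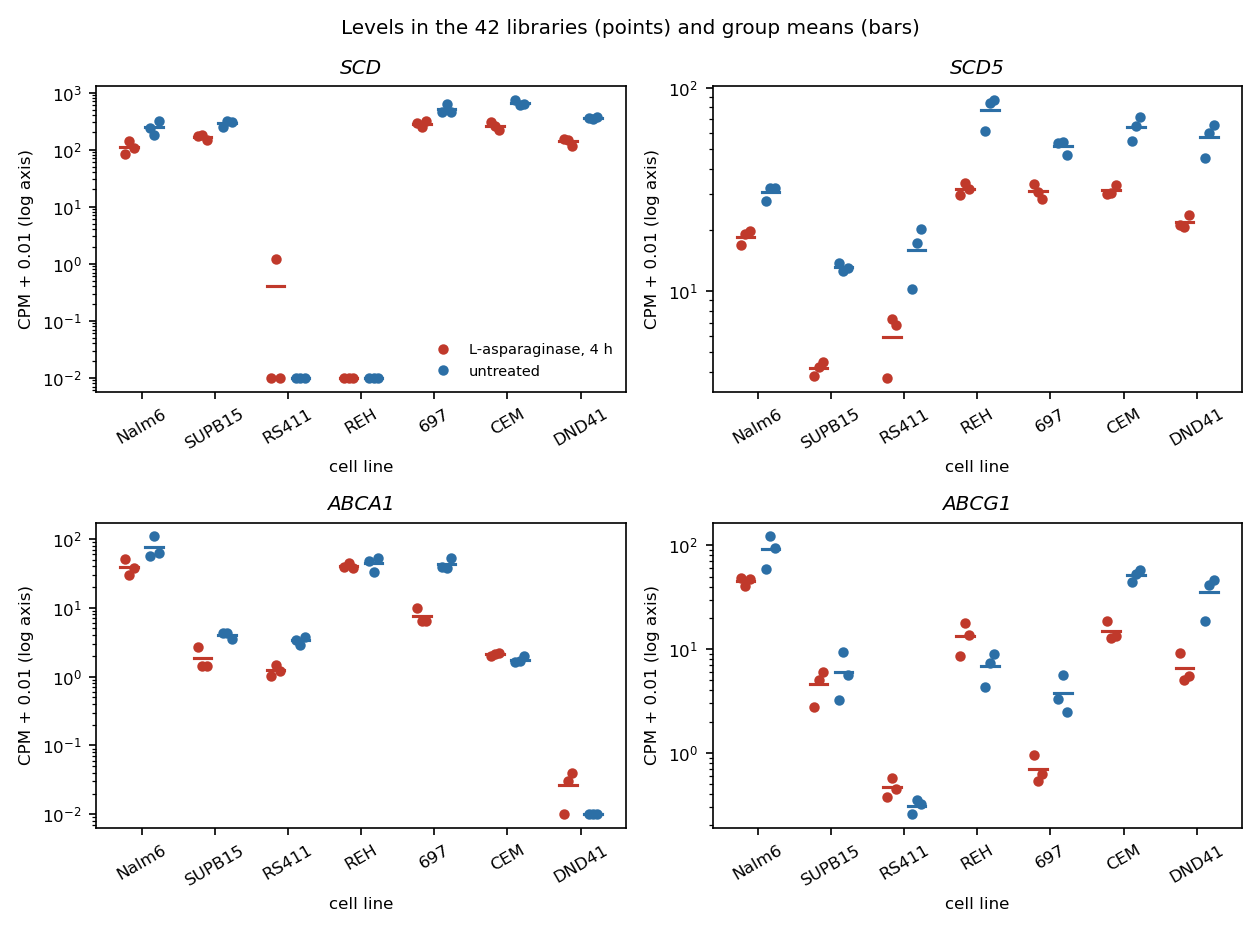
CPM plus 0.01 (log axis) of SCD, SCD5, ABCA1 and ABCG1 in each library (points) and group mean (bars), with L-asparaginase left of untreated in each line. SCD has no counts in REH and untreated RS411, where SCD5 is present, and ABCG1 is lower with L-asparaginase in 4 lines and higher in REH.

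SCD makes oleate and palmitoleate from saturated fatty acids and, as the plot of SCD and SCD5 shows, was expressed in 5 of the 7 lines. CEM cells held 306, 261 and 224 CPM of SCD with L-asparaginase, against 743, 615 and 621 CPM untreated. For SCD in DND41, the treated libraries gave 153, 149.9 and 115 CPM and the untreated libraries 365, 348 and 368 CPM. In Nalm6, SCD was at 82.4, 144 and 106 CPM with L-asparaginase, against 237, 178 and 318 CPM untreated. The treated libraries were all below the untreated ones. SUPB15 cells held 176, 179.7 and 146 CPM of SCD with L-asparaginase, against 253, 323 and 309.9 CPM untreated. For SCD in 697, the treated libraries gave 297, 250.8 and 312 CPM and the untreated libraries 455, 628 and 456 CPM. These groups did not overlap either, although 697 was not called (-0.85 ± 0.2 (SE), adjusted p = 0.081). In REH all 6 libraries had 0 counts, and in RS411 the 3 untreated libraries had 0, which allows levels of up to 0.0276 and 0.0227 CPM. Treated RS411 library B, 1 of the 3 with transcripts not found in the line's other libraries, had 61 counts (1.18 CPM), and the other treated RS411 libraries had 0. The change was largest in DND41 (-1.34 ± 0.14 (SE), adjusted p = 0.00062) and smallest in SUPB15 (-0.84 ± 0.14 (SE), adjusted p = 0.0037) among the 4 called lines, and all 4 calls held with each library left out. Its paralog SCD5, not a member of the set, was found in every line: REH held 29.5, 34.0 and 31.7 CPM with L-asparaginase, against 61.0, 84.3 and 86.9 CPM untreated, and RS411 3.74, 7.32 and 6.77 CPM with L-asparaginase, against 10.2, 17.3 and 20.1 CPM untreated. SCD5 fell in 6 lines (mean response -1.18 ± 0.072 (SE), adjusted p = 2.6e-15).

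ACSS2 turns acetate into acetyl-CoA and fell in 4 lines. In CEM, ACSS2 was at 19.6, 15.3 and 17.5 CPM with L-asparaginase, against 36.96, 42.8 and 35.6 CPM untreated. SUPB15 cells held 11.9, 12.7 and 11.4 CPM of ACSS2 with L-asparaginase, against 17.5, 23.7 and 24.3 CPM untreated. For ACSS2 in Nalm6, the treated libraries gave 8.51, 6.59 and 8.05 CPM and the untreated libraries 13.00, 13.97 and 15.7 CPM. Treated libraries were all lower. In REH, ACSS2 was at 16.4, 15.3 and 16.6 CPM with L-asparaginase, against 24.6, 28.03 and 27.5 CPM untreated. DND41 cells held 1.48, 1.72 and 1.93 CPM of ACSS2 with L-asparaginase, against 1.53, 5.75 and 4.48 CPM untreated. For ACSS2 in 697, the treated libraries gave 7.03, 7.49 and 8.23 CPM and the untreated libraries 7.37, 13.8 and 9.05 CPM. REH was separate, while in DND41 and 697 the first untreated library lay within the treated range or near it. In RS411, ACSS2 was at 13.2, 12.6 and 13.2 CPM with L-asparaginase, against 14.4, 14.7 and 12.8 CPM untreated. RS411 overlapped and was not called (-0.09 ± 0.13 (SE), adjusted p = 0.69). The mean response was -0.76 ± 0.09 (SE), adjusted p = 1.2e-08, and the 4 calls held with each library left out; with the block DND41 was called too (-1.03, adjusted p = 0.016).

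FADS1 and FADS2 are desaturases of polyunsaturated fatty acids and overlap on opposite strands by 142 exon bases. Nalm6 cells held 61.5, 89.1 and 81.8 CPM of FADS1 with L-asparaginase, against 172, 183 and 245 CPM untreated. For FADS1 in DND41, the treated libraries gave 62.6, 63.6 and 49.5 CPM and the untreated libraries 106, 124 and 126 CPM. In REH, FADS1 was at 123, 140.5 and 104 CPM with L-asparaginase, against 198, 231 and 188 CPM untreated. Treated libraries were all below untreated ones. CEM cells held 137, 126 and 119 CPM of FADS1 with L-asparaginase, against 203, 221 and 209 CPM untreated. For FADS1 in 697, the treated libraries gave 220.4, 171 and 187 CPM and the untreated libraries 319, 353 and 292 CPM. In RS411, FADS1 was at 103, 109 and 111 CPM with L-asparaginase, against 139.8, 148 and 128 CPM untreated. The same was true here, with 697 and RS411 not called. SUPB15 cells held 265, 312 and 298 CPM of FADS1 with L-asparaginase, against 244, 283 and 289 CPM untreated. SUPB15 alone overlapped. FADS1's response differed between lines (interaction adjusted p = 5e-05): that of Nalm6 was below the mean of the others by 0.78 (SE 0.15, adjusted p = 0.0023) and that of SUPB15 above it by 0.93 (SE 0.15, adjusted p = 0.00032). The 4 FADS1 calls held with each library left out.

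FADS2 showed smaller changes. For FADS2 in DND41, the treated libraries gave 179, 175 and 154 CPM and the untreated libraries 296, 324 and 326 CPM. In Nalm6, FADS2 was at 129, 165 and 137 CPM with L-asparaginase, against 209, 192 and 298 CPM untreated. REH cells held 322, 311 and 239 CPM of FADS2 with L-asparaginase, against 409, 415 and 363 CPM untreated. These groups were separate. For FADS2 in CEM, the treated libraries gave 449, 354 and 335 CPM and the untreated libraries 590.0, 512 and 445 CPM. In RS411, FADS2 was at 173, 170.2 and 171 CPM with L-asparaginase, against 192, 237 and 214 CPM untreated. SUPB15 cells held 218, 282 and 244 CPM of FADS2 with L-asparaginase, against 213, 338 and 329.6 CPM untreated. CEM and SUPB15 overlapped and RS411 did not. For FADS2 in 697, the treated libraries gave 294, 220.5 and 266 CPM and the untreated libraries 258, 410.2 and 298 CPM. The 697 groups overlapped. FADS2 had a mean response of -0.48 ± 0.067 (SE), adjusted p = 3e-07. Only the DND41 call (-0.87 ± 0.12 (SE), adjusted p = 0.0015) held with each library left out: REH was lost without treated B or C or untreated A or B (adjusted p between 0.073 and 0.22), CEM without treated B or C or untreated B (between 0.067 and 0.13), and Nalm6 without treated A or C or untreated C (between 0.058 and 0.084).

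The core of fatty acid synthesis moved in fewer lines. FASN, fatty acid synthase, fell in RS411, CEM and DND41, where it stood at 70.8 ± 9.01 CPM with L-asparaginase and 183 ± 42.7 CPM untreated (SD, n = 3 each) in RS411 and 60.8 ± 13.6 CPM with L-asparaginase and 158 ± 70.2 CPM untreated (SD, n = 3 each) in CEM. With the replicate block it also fell in REH (-0.53, adjusted p = 0.0018). It ranged over -1.37 in CEM to -0.14 in Nalm6, and the DND41 call was lost without treated library B or C or untreated library B (adjusted p between 0.055 and 0.096). ACACA, acetyl-CoA carboxylase, fell in RS411 and CEM (-0.71 ± 0.11 (SE), adjusted p = 0.0069 and -0.64 ± 0.13 (SE), adjusted p = 0.0022) and differed between lines (interaction adjusted p = 0.003); the RS411 call was lost without treated library C (adjusted p = 0.062). ACLY, which splits citrate, fell in CEM only (-0.63 ± 0.11 (SE), adjusted p = 0.001) but lay below 0 in all 7 lines, with a lower mean response (-0.33 ± 0.047 (SE), adjusted p = 4e-07). In Nalm6 ACLY was called lower with the block (-0.42, adjusted p = 0.043). LPIN1, a phosphatidate phosphatase, rose in RS411 and REH (0.60 ± 0.16 (SE), adjusted p = 0.047 and 0.46 ± 0.098 (SE), adjusted p = 0.0061); the RS411 call was lost without treated library B or C or untreated library B or C (adjusted p between 0.10 and 0.19) or with RLE size factors (0.054). ELOVL6, an elongase, ranged over -0.36 in 697 to 0.39 in SUPB15 with no call, and with the block it was lower in CEM (-0.28, adjusted p = 0.03).

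Responses of 13 of the 39 genes differed between lines in the joint model of 42 libraries (interaction adjusted p under 0.05), against 19.4% of all genes tested. SCD is 1 of the 13, but its test includes REH and RS411, where only treated RS411 library B had counts (61). Its call therefore cannot be read as a difference among the lines that expressed it. MYLIP and SCD could not be judged when single lines were set against the others, because lines without counts of them enter every contrast. Their SE ran between 567 and 1746 for MYLIP and between 1415 and 34725 for SCD. DND41, with almost no counts of ABCA1, enters its contrasts too, with an SE of 6.15 in CEM and 1.06 in REH. Set against the mean of the other 6 lines, 14 gene responses stood out at an adjusted p under 0.05. Of these, 3 were in Nalm6 (2.51% of all genes), SC5D, FADS1 and VLDLR, all below the other lines, and 1 was in SUPB15 (3.03%), FADS1, above. In RS411 (1.01%) ACACA was below and LPIN1 above, in REH (2.25%) STARD4 was below and ABCG1 above, and in DND41 (5.95%) ABCG1 was below and STARD4 above. In 697 (9.11%) ABCA1, ABCG1 and SC5D were below and LSS above. For LSS the difference was 1.19 (SE 0.34, adjusted p = 0.021), with untreated 697 library 1 far below its companions. Without the 5 untreated libraries that stood apart, 28 responses stood out, among them 13 of these 14, and SC5D in 697 was not called. The share of all genes rose too: 4 were in Nalm6 (7.01% of all genes), 1 in SUPB15 (7.18%) and 5 in RS411 (4.72%). The others were 2 in REH (5.68%), 7 in 697 (10.7%), 2 in CEM (3.38%) and 7 in DND41 (11.5%). Without the 3 treated ones 11 did, and VLDLR in Nalm6 and both RS411 genes were not called. Of these 11, 2 were in Nalm6 (1.97% of all genes), 1 in SUPB15 (1.27%), 2 in REH (1.21%), 4 in 697 (7.30%) and 2 in DND41 (4.66%). The share was 0.352% in RS411 and 0.833% in CEM.

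Untreated levels differed between lines for 34 of the 39 genes, against 86.7% of all genes tested; the 5 others were SREBF2, MVK, PMVK, HSD17B7 and FASN. SREBF2 ran between 144 CPM in Nalm6 and 100.2 CPM in DND41. SREBF1 was at 118 CPM in REH and lowest in DND41 at 25.1 CPM, below the next line, SUPB15, at 57.8 CPM (adjusted p = 0.00044). INSIG1 was highest in CEM and REH, 499.8 and 441.3 CPM, and REH exceeded the third, Nalm6, at 255 CPM (adjusted p = 0.02). HMGCS1 ran from 459.8 CPM in 697 to 126 CPM in RS411 with no neighbours in that order called apart. FDFT1 was highest in DND41 and CEM, 449.7 and 411 CPM, with CEM above the third, 697, at 274 CPM (adjusted p = 0.011), and SQLE was highest in 697, 291 CPM, above RS411 at 164 CPM (adjusted p = 0.00034). ACSS2 was lowest in DND41, 3.92 CPM, below 697 at 10.1 CPM (adjusted p = 1.4e-05), and ELOVL6 lowest in REH, 2.35 CPM, below CEM at 16.6 CPM (adjusted p = 6.6e-11). Among exporters, ABCA1 was highest in Nalm6 at 75.8 CPM, above REH at 44.2 CPM (adjusted p = 0.008), while REH and 697 were not called apart. ABCG1 was highest in Nalm6 at 91.7 CPM, above CEM at 51.9 CPM (adjusted p = 0.044), and lowest in RS411 at 0.3003 CPM.

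Genes of the same pathways outside the set were read from 4 lists. Of 17 further genes of sterol and SREBP control, 10 were lower and 2 higher in the mean response, with a median log2 fold change of -0.15. The largest changes were rises of MBTPS2, a protease that frees SREBP from the membrane (0.69 ± 0.058 (SE), adjusted p = 6.1e-12; higher in 5 lines), and of the ubiquitin ligase RNF145 (0.63 ± 0.089 (SE), adjusted p = 4e-07, higher in 4), and falls of TMEM97, an endoplasmic reticulum protein that binds sterols (-0.64 ± 0.053 (SE), adjusted p = 3.5e-12, lower in 6), and of the ubiquitin ligase RNF139 (-0.57 ± 0.065 (SE), adjusted p = 6.6e-09, lower in 5). Of 7 tested genes of LXR and its other targets, 2 rose, the receptors NR1H3 (0.61) and NR1H2 (0.34), and 2 fell, LPCAT3 (-0.29), which remodels phospholipids, and the corepressor NCOR1 (-0.25); 1 fell without the 5 untreated libraries that stood apart. Of 16 tested genes that supply fatty acid synthesis with citrate, NADPH and other needs, 7 fell and 3 rose. SCD5, the citrate carrier SLC25A1 (-0.62, lower in 4 lines) and the acetoacetate-activating AACS (-0.42, lower in 2) fell, and MID1IP1, which helps acetyl-CoA carboxylase to assemble, rose (0.65, higher in 6 lines). Of 11 genes that use isoprenoids, 1 fell and 4 rose, or 2 without a filter on low counts; NUS1 of dolichol synthesis fell (-0.23), and FNTA of protein prenylation (0.22) and COQ2 and PDSS2 of ubiquinone synthesis (0.18 and 0.14) rose. These shares stand against 19.6% lower and 17.8% higher among all genes tested in the mean response. The lists were chosen with earlier results of these data known, so the comparison describes them and is not independent support.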

How the data were processed

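The values are counts of reads per gene symbol, 1 table a line, as the authors deposited them; the genome build is hg19 per the submitters' processing notes. Neither the aligner nor the counter is given in the sources used here, nor its strand setting. The RNA was total RNA from a Qiagen column kit, per the labels' protocols. Columns were matched to groups by name; outside 697 a letter names a library without tying it to a GEO sample. The p-values measure the spread between libraries from 3 experiments a group. No pair of libraries in a group was near identical (lowest chi-square per degree of freedom 13.5 over 42 pairs).

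Each line's 6 libraries were fitted with edgeR 4.0.16 (R 4.3.3; limma 3.58.1): TMM factors, filterByExpr with a minimum count of 10, quasi-likelihood F-test, two-sided, and Benjamini-Hochberg adjustment over all genes tested, with calls at an adjusted p under 0.05. A joint model over 42 libraries gave the mean response, the interaction with line and the untreated levels; its leave-one-out fits kept the dispersions of the whole fit. SE is the size of the log2 fold change over the square root of F. CPM used the joint TMM factors. All adjusted p printed for genes come from these fits or, where named, DESeq2 1.42.0. The fits were first tested on simulated data. Alternatives were RLE factors, DESeq2, no filter, the replicate letter or number as a block, each library left out, and the libraries that stood apart left out; extending them to counts by role, by number of lines and of other lists was a choice made after seeing the data. Same-lettered treated and untreated libraries all correlated above 0.1 in SUPB15, RS411, REH, CEM and DND41 (lowest correlation 0.10, in RS411, over 8751 genes). Not all did in Nalm6 (lowest 0.048) or 697 (lowest -0.078). Differently lettered libraries reached 0.26 in RS411, so the letter did not single out pairs there. In DND41 they reached 0.31, against 0.36 for the lowest same-lettered pair. In REH same-lettered pairs correlated at 0.40 to 0.52, against at most -0.028 for differently lettered ones. The values were 0.20 to 0.36 against -0.0075 in CEM, and 0.17 to 0.20 against 0.11 in SUPB15. The letter thus went with pairs in REH and CEM, while the main calls there do not use it. A level that 0 counts allows is 3 counts over the group, and covers counting error only. Python 3.11.15 with pandas 2.3.3, numpy 2.4.6 and matplotlib 3.10.9 made the summaries.

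Members and the lists of other genes were chosen with earlier results of these data known. Values by library are given for members called in at least 4 lines in 1 direction, for the 4 with the widest range of responses among those whose response differed between lines, and for the member with the largest called rise; other lists are represented by at most 4 genes. SCD5 is given by library because SCD was missing in some lines, a choice made after seeing values. Some genes of the pathway are not reported here. Promoter windows come from RefSeq (GRCh38.p14), with 34 of 39 members matched, and exon overlaps from GENCODE release 29; neither is the build of the counts.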

Additional observations from a re-analysis of the deposited data

Results flagged for a closer look

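The response to L-asparaginase differed between the 7 lines for 13 genes, each by the interaction test of edgeR's joint model (adjusted p under 0.05), against 19.4% of all genes tested. The exporters differed most: ABCA1 (adjusted p = 1.3e-05) lay between -2.53 in 697 and 0.27 in CEM on the log2 scale, and ABCG1 (1.7e-05) between -2.45 in 697 and 1.01 in REH. MYLIP, the third LXR target (0.0014), lay between -0.60 in Nalm6 and 1.03 in 697. Among the desaturases, FADS1 (5e-05) lay between -1.33 in Nalm6 and 0.08 in SUPB15, and SCD (0.0073) between -1.34 in DND41 and -0.84 in SUPB15 over the 5 lines that expressed it; the SCD test also includes RS411 and REH, where counts were 0 in all libraries but 1. ACACA (0.003) lay between -0.71 in RS411 and 0.17 in SUPB15, and LPIN1 (0.0084) between -0.17 in Nalm6 and 0.60 in RS411.

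In the sterol branch SC5D (0.00089) lay between -1.21 in Nalm6 and -0.21 in RS411, and HSD17B7 (0.0057) between -0.60 in 697 and 0.53 in Nalm6. Of the transport genes, STARD4 (0.0018) lay between -1.55 in REH and 0.37 in DND41, and VLDLR (0.0027) between 0.32 in Nalm6 and 1.80 in CEM. INSIG1 (0.046) lay between -2.76 in REH and -1.47 in CEM, and INSIG2 (0.044) between -0.62 in REH and 1.03 in 697. Groups had 3 libraries, so no library was tested as an outlier.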

How the results depend on the processing

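Calls of member genes were repeated under RLE factors, DESeq2, no filter, the replicate block, and without the 5 untreated or the 3 treated libraries that stood apart. Of the counts of called members, 76 stayed within 1.5 times the value reported and 17 moved further. The share of all genes called, given in brackets, moved with the settings too. In 697 the lower share ran between 0% without treated library 2 or 3 and 11.8% without untreated library 1. DESeq2 called 14 lower in RS411 (8.51%), 14 lower (5.65%) and 3 higher (5.21%) in 697, and 2 higher in Nalm6 (10.6%). Without a filter Nalm6 had 2 higher (5.39%), and with RLE factors RS411 had 1 higher (7.20%). The replicate block gave 2 higher in Nalm6 (11.5%), 4 higher in DND41 (21.8%) and 0 lower in 697 (0.0196%), where the libraries share a number only. It also gave 25 lower in REH (21.2%), 29 in CEM (20.6%) and 18 in DND41 (18.1%). Without the 5 untreated libraries, 18 were lower in RS411 (11.03%), and 22 lower (11.8%) and 4 higher (11.4%) in 697. In that setting 2 were higher in Nalm6 (10.7%), 4 in SUPB15 (21.5%) and 2 in DND41 (18.7%). Without the 3 treated libraries, 7 were lower in SUPB15 (6.73%) and 0 higher in RS411 (1.65%). Leaving out each library gave these ranges of lower and higher members: Nalm6 8 to 16 and 0 to 2, SUPB15 7 to 18 and 2 to 4, RS411 4 to 18 and 0 to 3, REH 10 to 20 and 3 to 4, 697 0 to 22 and 0 to 4, CEM 18 to 28 and 2, DND41 11 to 17 and 1 to 3, mean response 23 to 25 and 3 to 4; 10 to 18 members differed in response and 33 to 37 in untreated level. Of the further counts repeated after seeing the data (by role, by number of lines, of other lists, of separate groups and of single lines against the others), 193 stayed within 1.5 times and 39 moved further, and 648 and 66 did so with a library left out. With a library left out, members lower in at least 4, 5, 6 and 7 lines numbered 13 to 15, 6 to 12, 2 to 8 and 0 to 4, and 8 were lower in at least 6 lines in DESeq2. Shares of all genes are not given for these counts, so they do not show a change particular to the members. With a library left out, higher calls of the sterol branch ran between 0 and 2 in Nalm6 (4.53% to 10.7%). They were 2 in DND41 with the block (21.8%). With the block, calls in single lines outside 697 and Nalm6 changed for the genes named with it in the report and for no others. Single-line calls kept direction throughout; 148 were lost and 524 held when a library was left out, and 27 were lost and 531 held under the other settings, among them ABCA1 in Nalm6 and all 7 calls in 697 under the block. In the mean response, signs turned for genes that were not called: ELOVL6 was 0.1151 and SCAP -0.0338 without the 5 untreated libraries, and SCD was -0.7737 without the 3 treated ones. With a library left out, the ELOVL6 log2 fold change in the mean response ran between -0.075 and 0.0267, the NPC1 log2 fold change in the mean response between -0.0336 and 0.0147, and the SCD log2 fold change in the mean response between -0.7854 (without treated RS411 library B) and 0.3316, so it is not used. The cause was not tested.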
